A study of Mus musculus with 24 samples.

Results

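The sites described here were places in fat chromatin, away from gene starts, where the circadian repressor Rev-erbα was detected and where it also left a ChIP-exo border in liver but no overlapping peak in brain. They numbered 1998 of the 9016 Rev-erbα peaks of epididymal white adipose tissue (eWAT), or 22.2%. A site was taken when its 150-bp eWAT peak shared no base with any of the 10687 brain peaks, when its centre lay over 1 kb from every protein-coding transcription start, and when a liver border lay within 100 bp of that centre. Peak calls, brain overlap, start distance and liver borders therefore chose the sites, and values of these measures below are descriptions with no test.

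The series held 24 mouse samples in 16 groups, of which 3 groups were used. For eWAT, 2 Rev-erbα ChIP-seq libraries stood behind a single peak list, and for brain (ventral tegmental area) 1 library. For liver, 2 ChIP-exo libraries of the same receptor stood behind a list of 245086 borders on chromosomes 1 to 19 and X. All 3 groups came from wild-type C57BL/6 mice (C57BL/6J in the genotype label) at zeitgeber time 10, with the same antibody from Cell Signaling Technology, and age and sex are not given in the labels. ChIP-exo trims the precipitated DNA with exonucleases up to the crosslinked protein, so that a plus-strand border marks the left edge and a minus-strand border the right edge of a protected stretch. Each list stood for its whole group. No value per library was at hand, sequencing depth was unknown, and the intervals below cover counting error over sites and not variation between animals. Neighbouring sites are not independent of each other. A site without a border or without a brain peak was one that the lists did not hold, which does not show that Rev-erbα was absent there.

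Rev-erbα (gene Nr1d1) is a nuclear receptor that represses transcription by recruiting the NCoR corepressor and the histone deacetylase HDAC3. It binds DNA directly through the core hexamer AGGTCA, either alone with an A/T-rich 5′ extension (the RORE, which it shares with the activating ROR receptors) or as a pair of cores spaced by 2 bases (the DR2). It is also known to reach chromatin through other DNA-bound factors, among them liver factors, without contacting its own element. In fat and liver it is known for ties between the clock and lipid metabolism.

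The elements that the results turn on can be read in the mm9 sequence of single sites. Each line below gives 101 bases about the eWAT peak centre on the plus strand, 5′ to 3′, named by the gene with the nearest start, with the element in capitals. The first 4 are the sites with a RORE or DR2 among the 47 sites picked for naming by eWAT score, by border signal or by nearness to a listed gene.
Vps13d (DR2), chr4:144551769-144551869: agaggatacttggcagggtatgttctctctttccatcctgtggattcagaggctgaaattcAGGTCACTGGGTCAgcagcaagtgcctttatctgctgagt
Foxo1 (RORE), chr3:52078589-52078689: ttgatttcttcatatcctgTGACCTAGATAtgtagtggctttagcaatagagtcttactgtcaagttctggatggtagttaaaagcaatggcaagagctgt
Ppard (RORE), chr17:28416300-28416400: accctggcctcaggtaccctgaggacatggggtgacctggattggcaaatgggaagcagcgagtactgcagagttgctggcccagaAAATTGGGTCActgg
Cry1 (RORE), chr10:84652785-84652885: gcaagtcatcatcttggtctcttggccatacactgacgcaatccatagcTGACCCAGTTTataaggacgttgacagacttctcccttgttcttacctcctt
The Foxo1 and Cry1 elements read on the minus strand, so that the core stands as its reverse complement. The Vps13d site lay between genes, 12767 bp downstream of the start of Vps13d, which codes for a lipid transfer protein, and it ranked 30 in the whole eWAT list by score.

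The next lines show sites with an E-box, C/EBP element or D-box, all chosen after their values were seen. The E-box CACGTG is the element of CLOCK-BMAL1 and of other basic helix-loop-helix factors such as USF1. The C/EBP element, searched as TTGCNNAA, is bound by CCAAT/enhancer-binding proteins, which act in both adipocytes and hepatocytes. The D-box, searched as TTATGTAA, is bound by the activators DBP, TEF and HLF and by the repressor NFIL3. Rgnef, Galnt2 and Bcl6 had the highest eWAT scores of the named sites with an E-box outside untranslated exons, and each of the others had a liver border close to a fixed distance on both sides of the element.
Rgnef (E-box), chr13:98798062-98798162: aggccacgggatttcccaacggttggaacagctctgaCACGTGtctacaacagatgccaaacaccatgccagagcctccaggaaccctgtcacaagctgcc
Galnt2 (E-box), chr8:126789968-126790068: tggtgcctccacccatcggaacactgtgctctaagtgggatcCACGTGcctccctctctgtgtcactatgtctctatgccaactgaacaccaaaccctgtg
Bcl6 (E-box), chr16:24121036-24121136: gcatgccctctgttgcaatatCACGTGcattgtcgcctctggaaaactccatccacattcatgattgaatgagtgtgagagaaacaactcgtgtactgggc
Bptf (E-box), chr11:106985827-106985927: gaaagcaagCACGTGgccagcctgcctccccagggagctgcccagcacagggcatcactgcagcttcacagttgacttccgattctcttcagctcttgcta
Niacr1 (E-box), chr5:124285021-124285121: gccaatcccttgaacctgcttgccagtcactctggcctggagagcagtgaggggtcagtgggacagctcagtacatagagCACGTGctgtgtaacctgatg
Rsbn1l (E-box), chr5:20447122-20447222: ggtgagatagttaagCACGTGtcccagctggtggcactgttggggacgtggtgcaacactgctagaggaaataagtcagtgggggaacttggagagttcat
Lpp (C/EBP), chr16:24933904-24934004: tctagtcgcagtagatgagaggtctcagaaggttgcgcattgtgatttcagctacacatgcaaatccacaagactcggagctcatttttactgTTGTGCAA
Eepd1 (C/EBP), chr9:25268642-25268742: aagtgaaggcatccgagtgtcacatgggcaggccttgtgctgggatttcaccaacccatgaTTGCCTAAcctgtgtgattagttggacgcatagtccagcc
Gpcpd1 (C/EBP), chr2:132425002-132425102: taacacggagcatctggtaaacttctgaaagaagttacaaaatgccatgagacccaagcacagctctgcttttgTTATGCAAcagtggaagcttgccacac
Unc5b (D-box), chr10:60283412-60283512: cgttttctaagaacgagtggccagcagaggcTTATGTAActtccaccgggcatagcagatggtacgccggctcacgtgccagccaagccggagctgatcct
Cobll1 (D-box), chr2:65106916-65107016: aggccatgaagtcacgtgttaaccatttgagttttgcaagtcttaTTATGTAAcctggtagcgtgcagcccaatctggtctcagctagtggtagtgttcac
Nrg4 (D-box), chr9:55125582-55125682: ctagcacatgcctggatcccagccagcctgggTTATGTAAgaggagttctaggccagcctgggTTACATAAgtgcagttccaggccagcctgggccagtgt

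The sites were compared with both of the most similar classes of distal eWAT peak. Of 8226 eWAT peaks over 1 kb from a start, 7670 did not overlap a brain peak, and 26% of those had a liver border and form the 1998 sites. The 5672 without a border are called unbordered fat sites. The 295 distal eWAT peaks that had both a border and a brain overlap are called brain-shared sites.

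The authors' eWAT score, whose unit is not given in the sources used here, ranged from 10.1 to 144.9 over the 1998 sites, with a median of 17.2 and middle values from 12.2 to 25.3 (lower and upper quartile). The median was 13.2 in unbordered fat sites and 34.4 in brain-shared sites. The share of distal non-brain peaks that had a liver border was higher at higher scores. It was 16.3% in the lowest quartile of the eWAT list (343 of 2108), 21.5% in the next (430 of 2000), 27.4% in the one above (564 of 2060) and 44.0% in the highest (661 of 1502). Of the 100 highest-scoring eWAT peaks 15 were among the sites. Of the 1052 peaks with a rank of 1000 or better, ties included, 361 were. Across the 1998 sites, the eWAT score and the signal of the strongest liver border had a Spearman correlation of 0.26, and across the 295 brain-shared sites it was 0.44. Both are descriptions over peaks that share their libraries.

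**Figure D1:**
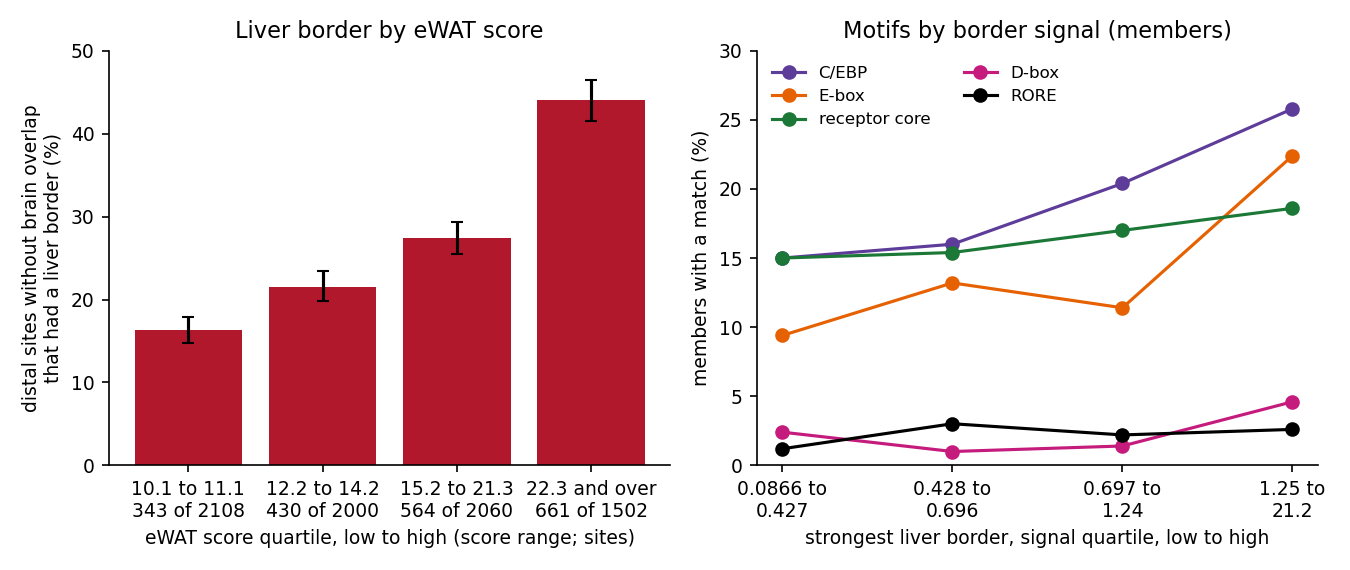
Left, the percentage of distal eWAT peaks without brain overlap that had a liver border within 100 bp, by quartile of the eWAT score, with 95% Wilson intervals; the bars climb from 16.3% to 44.0%. Right, the percentage of the 1998 sites (members) with each motif within 50 bp of the centre, by quartile of the strongest border's signal; the receptor core is the AGGTCA hexamer. C/EBP and E-box reached 25.8% and 22.4% in the strongest quartile.

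By the rule every site had a liver border within 100 bp of the eWAT centre, so the border density there is partly built in. The 1998 sites held 4549 borders within 100 bp, or 11.3 borders per kb and site, and 2.16 per kb from there to 200 bp, 0.514 from 200 to 500 bp and 0.379 from 500 to 1000 bp. In unbordered fat sites, which by definition had none within 100 bp, the densities in the 3 outer zones were 0.315, 0.211 and 0.211 per kb. Plus-strand borders lay to the left, with a median offset of -14 bp, and minus-strand borders to the right, with a median of 25 bp. A border lay within 50 bp of the centre in 1617 sites (80.9%) and within 25 bp in 1120 (56.1%).

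The number of borders per site was small. One border was found at 806 sites (40.3%), 2 at 432 (21.6%) and 3 or more at 760 (38.0%), up to 8. Borders stood on both strands at 993 sites (49.7%). A plus border with a minus border 5 to 60 bp to its right was found at 718 sites (35.9%, 95% interval 33.9 to 38.1%), against 144 of 295 brain-shared sites (48.8%, 43.2 to 54.5%). The strongest border had a median signal of 0.696, from 0.0866 to 21.2, against 1.02 in brain-shared sites. The authors' signal has no stated scale. A border with p of at most 0.01 was present at 753 sites (37.7%).

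**Figure D2:**
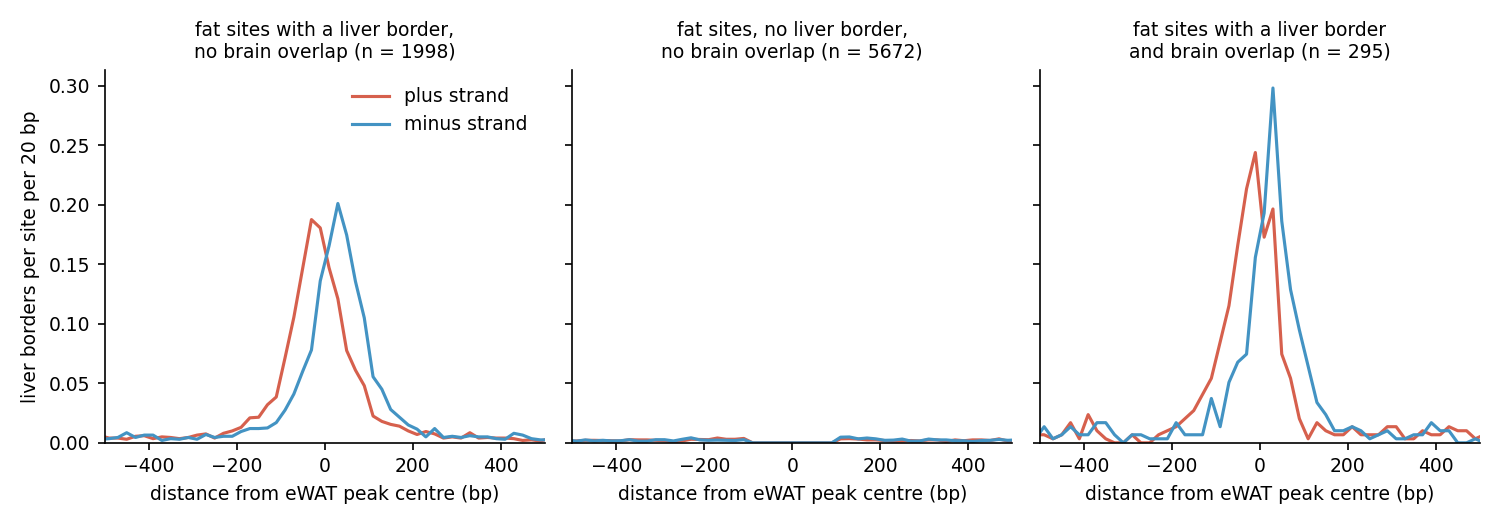
Liver ChIP-exo borders per site in bins of 20 bp by distance from the eWAT peak centre, plus strand in red and minus strand in blue, for the 1998 sites, the 5672 unbordered fat sites and the 295 brain-shared sites. Plus-strand borders peak left of the centre and minus-strand borders right of it in both bordered classes; the middle class has none within 100 bp because it was chosen so.

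The DNA about the centres was not used to choose the sites, and 24 motifs were sought in it, in both directions, up to 50 bp from the centre. A motif is called different between classes where the Newcombe interval of the difference in shares, at 99.9% to allow for 48 comparisons, left out 0. Against unbordered fat sites, 5 of 24 motifs were called higher and 0 lower. The Rev-erbα elements proper were rare in both. The RORE was found at 45 of 1998 sites (2.25%, 95% Wilson interval 1.69 to 3.0%) and at 130 of 5672 unbordered fat sites (2.29%, 1.93 to 2.71%), a difference of -0.04 points (-1.18 to 1.44). The DR2 was found at 16 sites (0.801%) and at 22 unbordered fat sites (0.388%), a difference of 0.41 points (-0.17 to 1.40). A RORE or a DR2 was thus present at 61 of the 1998 sites, or 3.05%. The RORE was nonetheless 12.9-fold as frequent at the centre of the sites as in windows of the same width 1 kb to each side, where it was found in 0.175%, and the corresponding ratio in unbordered fat sites was 13.7.

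The E-box differed most from unbordered fat sites. It was present at 282 sites (14.1%, 12.7 to 15.7%) and at 337 unbordered fat sites (5.94%, 5.36 to 6.59%), a difference of 8.17 points (5.56 to 11.08). In the flanking windows of the sites its share was 1.78%. The C/EBP element was found at 386 sites (19.3%, 17.6 to 21.1%) and at 772 unbordered fat sites (13.6%, 12.7 to 14.5%), a difference of 5.71 points (2.56 to 9.08), with 3.73% in the flanks of the sites. Both motifs were also called higher under each of the 7 other settings chosen at the outset. With borders within 50 bp or of p at most 0.01, the comparison class also took in sites whose borders failed the setting. C/EBP had the highest share of the 24 motifs at the sites, followed by AGGTCA, by TTGGCA (15.9%), which is 1 arm of the NFI palindrome, and by the E-box.

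The other 3 motifs called higher were AGGTCA, the D-box and the forkhead element TGTTTAC. The AGGTCA core was present at 330 sites (16.5%) and 729 unbordered fat sites (12.9%), a difference of 3.66 points (0.70 to 6.88). With borders of p at most 0.01 its difference was 0.59 points and not called, against a class that then also held sites with only borders of higher p. The core includes every match of TAGGTCA, found at 94 sites (4.70%) and 256 unbordered fat sites (4.51%), for which no difference was called. The D-box was found at 47 sites (2.35%) and 59 unbordered fat sites (1.04%), a difference of 1.31 points (0.28 to 2.75). It was not called with motifs within 25 bp (0.69 points) or above the median score (1.30 points). The forkhead element, bound by the liver pioneer factors FOXA1 and FOXA2 and by other forkhead proteins, was found at 46 sites (2.30%) and 58 unbordered fat sites (1.02%), a difference of 1.28 points (0.25 to 2.71). It was not called with motifs within 25 bp (0.54 points) or over 10 kb from a start (0.96 points). The forkhead share in the flanks of the sites was 1.35%. Elements of HNF4 (CAAAGTCCA), HNF1 and ONECUT (ATTGATT), factors of hepatocytes, were present at 9, 3 and 19 sites and none was called different.

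Because the score was higher in the sites than in unbordered fat sites, the shares were also taken within score quartiles, an addition made after the data were seen. From the lowest quartile to the highest, the E-box share of the sites was 10.8%, 7.21%, 14.9% and 19.7%, against 3.91%, 5.16%, 6.55% and 10.6% in unbordered fat sites. The 95% interval of the difference left out 0 in the lowest quartile and in the 2 highest, and reached from -0.36 to 5.06 points in the one next to the lowest. The C/EBP share of the sites was 12%, 18.6%, 19.7% and 23.3% in the same order, against 12.5%, 12.5%, 14.8% and 16.1%, and its 95% interval left out 0 in all but the lowest quartile. The AGGTCA differences were 2.16, 1.68, 5.30 and 2.52 points, with 0 left out of the 95% interval only in the quartile next to the highest. The D-box differences were 0.15, 2.34, 1.48 and 1.17 points, with 0 left out in the 2 middle quartiles. The forkhead differences were 1.55, 1.16, 0.73 and 2.10 points, with 0 left out in the lowest and the highest. The G+C content of the 101 bp about the centre had a median of 49.5% in the sites, 47.5% in unbordered fat sites and 54.5% in brain-shared sites, and its part in the motif differences was not tested.

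Against brain-shared sites the order of the elements changed. The sites had the Rev-erbα elements less often: the RORE in 2.25% against 7.80% (a difference of -5.54 points, -12.33 to -1.54), the DR2 in 0.801% against 5.42% (-4.62 points, -10.73 to -1.51), TAGGTCA in 4.70% against 13.6% (-8.85 points, -16.79 to -3.29) and AGGTCA in 16.5% against 24.4% (-7.89 points, -17.25 to -0.12). The C/EBP element was the 1 motif called higher, in 19.3% of the sites against 7.12% of brain-shared sites (12.20 points, 5.10 to 16.88). The ETS element CCGGAAG was called lower at 0.300% against 2.03%, on 6 sites in each class. The E-box stood at 14.1% against 21.4%, a difference of -7.24 points whose interval, -16.31 to 0.04, just held 0. Several of these calls were lost under the 7 other settings. AGGTCA was called lower in 1 of the 7, over 10 kb from a start, and ETS also in 1, with motifs within 100 bp. The RORE difference was not called with motifs within 25 bp (-2.53 points), above the median score (-4.07 points) or with borders of p at most 0.01 (-5.42 points). The DR2 was not called with borders of p at most 0.01 (-3.24 points) or with a border pair (-2.78 points). TAGGTCA was not called with a border pair (-5.82 points), nor C/EBP with borders of p at most 0.01 (10.30 points). Calls were also gained. The E-box was called different with borders within 50 bp. The SP1 element GGGCGG was called different in that setting and with motifs within 100 bp. Brain-shared sites also had higher eWAT scores.

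**Figure D3:**
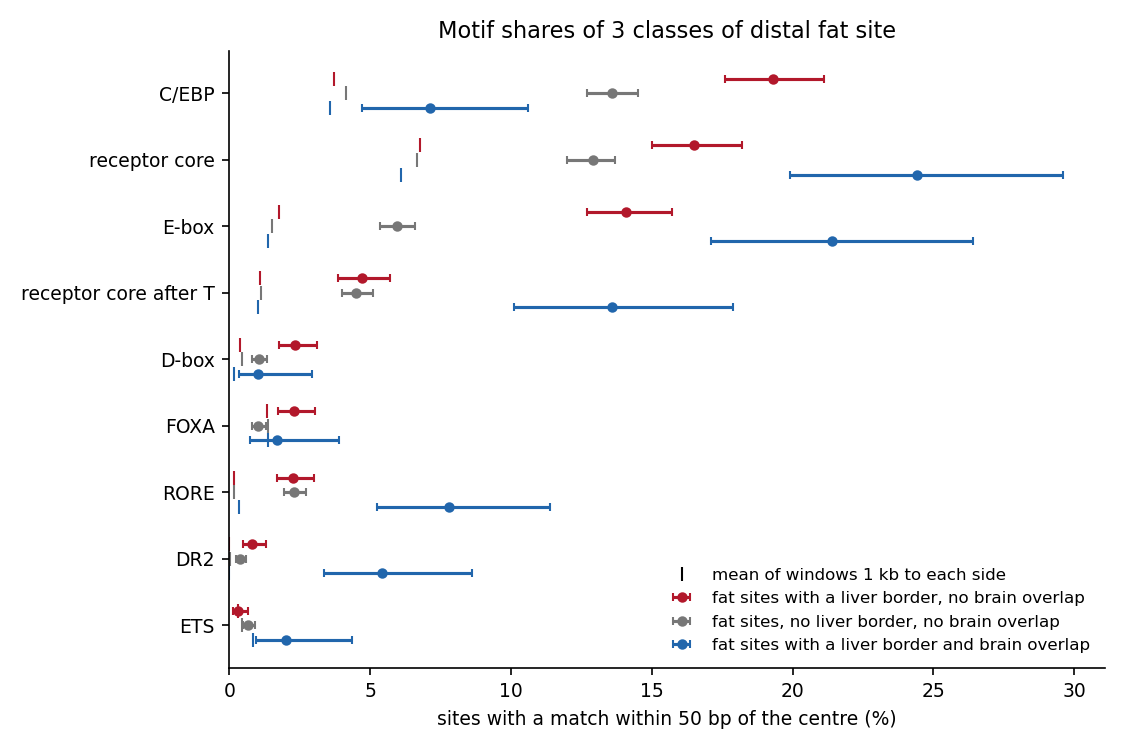
Percentage of sites with each motif within 50 bp of the eWAT peak centre (points) with 95% Wilson intervals, for the 1998 sites in red, the 5672 unbordered fat sites in grey and the 295 brain-shared sites in blue; vertical ticks give the mean of windows 1 kb to each side, and the receptor core is the AGGTCA hexamer. The 1998 sites lie above both other classes for C/EBP and between them for the E-box, and they share the low RORE level of unbordered fat sites.

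All hexamers, each counted with its reverse complement, were ranked by the share of sites holding it over the share of the flanks. Of 2078 hexamers ranked, CACGTG was second with a ratio of 7.94, and ACGTGC (5.97), ACGTGA (5.61) and CGTGAC (5.41), which overlap it or its extensions, followed. The first, ACGCGC (8.00), was found at 32 sites. ATTGCG (4.80) and CGTTGC (4.22) also stood among the first 10. All of the first 10 held a CG dinucleotide, and the lowest ratio, 0.0952, was that of ATATAT.

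The E-box and C/EBP shares were highest at the sites with the strongest liver borders. From the quartile of sites with the weakest to that with the strongest border, the E-box share was 9.40%, 13.2%, 11.4% and 22.4% and the C/EBP share 15%, 16%, 20.4% and 25.8%. The RORE share was 1.20%, 3.01%, 2.20% and 2.60%. The D-box share was 2.40%, 1.00%, 1.40% and 4.60%. The median eWAT score over the same quartiles was 14.2, 16.2, 18.2 and 21.3. Any of AGGTCA, RORE, DR2, E-box, C/EBP or D-box was present at 939 sites (47.0%). The share was 31.5% in unbordered fat sites, 51.9% in brain-shared sites and 35.6% in all eWAT peaks. None of the 24 motifs was held by 756 sites (37.8%), against 49.3%, 33.9% and 46.4% in the same order. E-box and C/EBP stood together at 32 sites, and E-box and RORE at 1. Their separate shares, taken as independent, would give 54.5 and 6.35 sites. AGGTCA stood with C/EBP at 50 sites and with the E-box at 30, against 63.8 and 46.6 taken as independent. RORE and C/EBP stood together about as often as that level (8 against 8.69), and TTGGCA and C/EBP more often (80 against 61.4). None of these differences was tested.

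The borders could be set against the elements base by base. At C/EBP, E-box and D-box matches they gathered at fixed distances. RORE matches had too few borders to tell a fixed position from scatter. These positions are descriptions, and those about C/EBP, E-box and D-box were taken after the motif shares were seen. Offsets are in bp from the first base of the element in its own direction, with borders on its strand called upstream and borders on the other strand downstream. At 439 C/EBP matches in 386 sites, 58 of the 289 upstream borders within 30 bp fell at -11 and 38 of the 261 downstream borders at 18, each 11 bp beyond the end of the element. The downstream borders also gathered nearer the element, with 13 at offset 13 and 21 at offset 14, so their right edge was not single. Within 1 bp of these positions, 106 of 439 matches (24.1%) had the upstream border, 65 (14.8%) the downstream border and 30 both, a spacing of 29 bp.

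At 313 E-box matches in 282 sites, 26 of 218 upstream borders fell at -10 and 32 of 192 downstream borders at 15, each 10 bp beyond the end of the hexamer. Within 1 bp, 49 matches (15.7%) had the left border, 57 (18.2%) the right border and 12 both, a spacing of 25 bp. The E-box reads the same on both strands, so its direction is that of the genome's plus strand.

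The D-box had the sharpest borders. At 52 matches in 47 sites, 20 of 35 upstream borders within 30 bp fell at -11 and 16 of 33 downstream borders at 18, the same positions as at C/EBP. Within 1 bp, 22 matches (42.3%) had the upstream border, 21 (40.4%) the downstream border and 13 both. At 46 forkhead matches the commonest upstream offset was -9, with 7 of 27 borders.

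Around the RORE the borders were few, and whether they held a fixed position cannot be told from them. Counted from the first base of its core, 54 upstream borders at 45 matches had a median offset of -14 bp and a middle range from -46 to 20 bp, and 48 downstream borders a median of 14 bp from -26 to 52 bp. The commonest positions held 3 of 22 upstream (13.6%) and 4 of 19 downstream borders (21.1%) within 30 bp. At C/EBP the commonest positions held 20.1% and 14.6%, and at the E-box 11.9% and 16.7%, of many more borders. Around 373 AGGTCA matches the commonest positions held 7 of 165 and 7 of 143. The DR2 had 27 matches in 16 sites, several of them overlapping in repeats of the core, and too few borders for any position to hold more than 2.

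**Figure D4:**
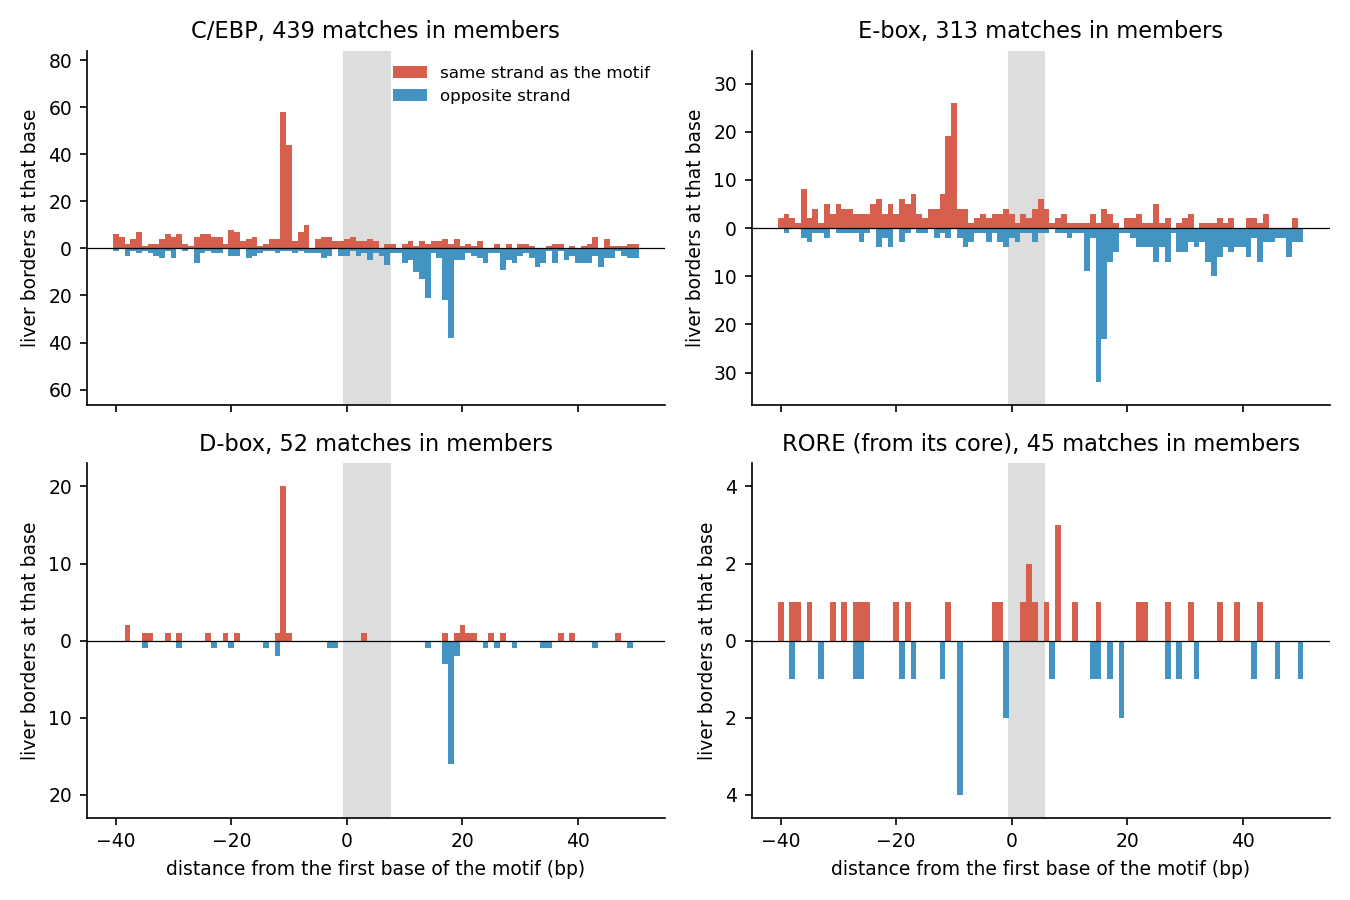
Number of liver borders at each base about the C/EBP, E-box, D-box and RORE matches of the 1998 sites, by distance from the first base of the motif (for the RORE, of its core); borders on the motif's strand point up in red, those on the other strand down in blue, and the grey band covers the motif. Bases about 11 bp (C/EBP, D-box) and 10 bp (E-box) outside the motif hold the most borders, while the RORE panel has at most 4 borders at any base.

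Brain-shared sites showed the same positions at the few elements they held. Of 75 E-box matches there, 16 had the upstream border and 21 the downstream border, and all 3 D-box matches had both. C/EBP matches numbered 23, of which 5 had the upstream and 7 the downstream border. No difference in border position between the classes was tested.

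The spacing of border pairs was taken next. The 1998 sites held 980 pairs 5 to 60 bp apart, with a median of 29 bp. The commonest spacing was 29 bp, with 60 pairs (6.12%), whereas it was 3.6% of the 27033 such pairs in the whole liver list. The spacing of 25 bp made up 2.76% of pairs at the sites and 5.86% of the liver list. By ranges, 105 pairs at the sites were 28 to 30 bp apart and 75 were 24 to 26 bp apart.

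The D-box and C/EBP sites shown above, and those near Bptf, Niacr1 and Rsbn1l, were chosen as having borders close to these positions. They illustrate the positions and add no support for them. Borders on both sides stood at 13 of 52 D-box, 30 of 439 C/EBP and 12 of 313 E-box matches. At Unc5b, which codes for a netrin receptor, the site was intronic, 10867 bp past the start, and had an eWAT score of 52.7. Its plus border at -11 from the D-box had a signal of 21.2, the strongest of all 1998 sites, and its minus border at 18 had 5.68. At Nrg4, which codes for a growth factor secreted by fat, the site held 2 D-box matches on opposite strands within an intron, 5747 bp past the start. Its borders at -11 and 18 from the first match had signals of 2.34 and 8.20. At Cobll1, 29506 bp upstream of the start, borders at -11 and 18 had 2.68 and 8.61.

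The C/EBP sites shown near Eepd1 and Gpcpd1 had their borders at -11 and 17, with signals of 3.90 and 3.58 and of 6.85 and 10.8. At the Bptf E-box, in an intron of the gene for a chromatin remodelling subunit, borders stood at -9 (signal 0.659) and 15 (0.997). Galnt2 and Bcl6 each had a minus border 15 bp from the first base of the E-box, with signals of 5.02 and 1.98, and no plus border within 100 bp of the centre. Galnt2 had another minus border at -8 with a signal of 4.74. At Rgnef, the named E-box site of highest score among those shown, neither position had a border. Its plus border stood at -2 (signal 0.302) and its minus border at -60 (0.354).

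At the 4 sites with a Rev-erbα element the borders had no common position, and 3 of the 4 had a border less than 10 bp from the element's first base. Ppard had minus borders at -4 (signal 1.41) and 4 (1.19). Foxo1 had a plus border at -4 (0.240) and a minus border at 78 (0.162), and Cry1 a minus border at 8 (1.01) and a plus border at -76 (1.77), both counted in the direction of an element on the minus strand. The Vps13d site had 1 plus border 19 bp before its DR2, with a signal of 1.34, and 3 minus borders 40, 51 and 73 bp from its first base with signals from 1.20 to 1.79.

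The highest-scoring sites covered genes of many kinds. The first was in an intron of Foxp1 (chr6:99125507-99125656), which codes for a forkhead transcription factor, with a score of 144.9, rank 22 of the whole eWAT list, a C/EBP match and borders on both strands. The second lay in an intron of Col4a1 (chr8:11271013-11271162, score 128.7, rank 27), nearest to the start of its divergent neighbour Col4a2, and both code for basement membrane collagen. After Vps13d (124.6) came a site in an untranslated exon of Podn nearest to the start of Slc1a7 (119.5), one in an intron of Rgnef (105.4), one in an intron of Galnt2 (95.2), a glycosyltransferase, and one 132148 bp upstream of Bcl6 (91.2), a transcriptional repressor known from lymphocytes. The next 5 lay near Nlrc3 (88.1), P4ha2 (87.1), Peg3 (85.1), A830005F24Rik (83.1) and Ift122 (81.0). Of these 12 sites, 6 held an E-box, 3 a C/EBP match, 1 a DR2 and 0 a RORE, and 3 held no RORE, DR2, AGGTCA, C/EBP, E-box, D-box or forkhead match.

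The strongest liver borders were at other sites. After Unc5b came a site 71416 bp downstream of Wdr5 (border signal 18.2, eWAT score 48.6), one in an untranslated exon of Efhd2 nearest to Ctrc (15.6, 20.3), one in an intron of Dock1 nearest to Fam196a (15.3, 10.1), and sites in introns of Mtss1 (11.8, 56.7) and Agxt2 (11.3, 23.3). Each of these 6 had a border pair. Agxt2 codes for a mitochondrial aminotransferase and Wdr5 for a subunit of histone methyltransferase complexes. The site in Dock1 had the lowest score in the eWAT list, and a high liver signal thus did not always go with a high fat score.

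The sites lay in introns and between genes in nearly equal parts. The centre was in an intron of a protein-coding gene at 983 sites (49.2%, 47.0 to 51.4%) and outside genes at 945 (47.3%), against 47.5% and 49.2% of unbordered fat sites and 53.2% and 45.1% of brain-shared sites. Untranslated exons held 43 sites and coding exons 20. The nearest start was a median of 19203 bp away, against 25895 bp for unbordered fat sites and 18608 bp for brain-shared sites. A start over 50 kb away was found for 517 sites (25.9%, 24 to 27.8%), against 33.0% (31.8 to 34.2%) of unbordered fat sites. Sites were present on all 20 chromosomes considered, from 16.9% of eWAT peaks on X to 27.2% on chromosome 19.

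Sites were spread over 1645 nearest gene symbols (1647 gene identifiers), of which 1380 had 1 site. Myc, the proto-oncogene, was the nearest gene of 8 sites, and Maf and Nfil3, which code for basic leucine zipper factors, of 6 each. Joined at up to 10 kb, 185 sites fell into 89 clusters, of which 7 had 3 sites and 0 had more. Among these 7 were clusters near Insig1, whose product retains the SREBP complex in the endoplasmic reticulum, and near Lpin1, a phosphatidate phosphatase of triglyceride synthesis, and Ntsr2. The Insig1 cluster spanned 8282 bp and held a site scoring 56.7. The sites of 1 cluster share their locus, and the clusters near Insig1 and Lpin1 were picked for naming with their values known.

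A site within 10 kb of a start was found for 710 of 22350 protein-coding genes, or 3.18%, and within 50 kb for 2750, or 12.3%. These are the backgrounds for the gene lists. Gene length, number of starts and activity in fat were not matched between the lists and all genes, and no list was tested. In the clock list, 5 of 23 genes (21.7%) had a site within 10 kb. They were the repressors Cry1 and Cry2, the D-box factors Tef and Nfil3 and the RORE activator Rora. Cry2 had a site scoring 38.5 in an intron 1146 bp from a start, with 1 border of signal 0.186 and none of the named motifs. Nfil3 had 2 sites, the stronger also scoring 38.5, 6192 bp downstream of the start, with an E-box and a border pair of strongest signal 3.29. Tef had a site of the same score 5899 bp upstream, with 5 borders. Cry1 had the RORE shown above 5036 bp upstream of its start, with an eWAT score of 15.2. Rora had an intronic site scoring 14.2, 7053 bp past a start. In the clock list 19 of 23 genes had some eWAT peak of any class within 10 kb, against 3176 of all 22350 genes, or 14.2%. Brain-shared sites lay within 10 kb of 5 of the 23 clock genes and unbordered fat sites within 10 kb of 2. Over all genes their shares were 0.506% and 7.38%.

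Sites were also found near fat and lipid genes. In the adipocyte list 6 of 27 genes (22.2%) had one within 10 kb. Klb, the FGF21 co-receptor, had 2, the higher with a score of 39.5, and Agpat2, an acyltransferase of phosphatidate synthesis, had one of 38.5. Cidec, a lipid droplet protein, and Pparg, the nuclear receptor that drives adipocyte differentiation, each had a site of 22.3, the first with an E-box and the second with a C/EBP match 2577 bp downstream of a start. Thrsp and Adrb3, the β3-adrenergic receptor, completed the list with 20.3 and 12.2. In the same list 20 of 27 genes had any eWAT peak within 10 kb, against 5 of 20 genes of the hepatocyte list and 3 of 24 of the neuron list, with 14.2% of all genes as the background. Unbordered fat sites lay within 10 kb of 10 of the 27 adipocyte genes and brain-shared sites of 0.

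The lipid synthesis list had 5 of 20 genes (25%) with a site, namely Acaca, acetyl-CoA carboxylase (2 sites, the higher at 47.6), Agpat2, Mlxipl, the glucose-responsive factor ChREBP (28.4, with a C/EBP match and a border of signal 3.37), Thrsp and Gpam (14.2). The lipolysis and lipid droplet list had 4 of 16, Cidec, Plin4 (18.2), Mgll (15.2) and Adrb3, and shares 2 genes with the adipocyte genes just named. Unbordered fat sites lay within 10 kb of 4 of the 20 lipid synthesis genes and 3 of the 16 lipolysis genes. The list named fatty acid oxidation had 3 of 18 genes with a site, Angptl4 (22.3), Hadhb and Slc25a20 (10.1 each, the lowest score in the eWAT list). In the cholesterol and SREBP list 0 of the 16 genes matched to the annotation had a site within 10 kb and 3 within 50 kb.

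Among genes of insulin signalling 4 of 16 (25%) had a site within 10 kb. Among them were Foxo1, the forkhead effector of the pathway (25.3, with the RORE shown above), and Irs2, an insulin receptor substrate (13.2, with an E-box and a border pair). In the glucose list the 2 of 16 were Foxo1 and Ppp1r3c (10.1). Nuclear receptor genes had sites in 4 of 27 cases. Ppard, a fatty acid receptor, had 2, the higher scoring 25.3 and holding the RORE shown above. The others were Pparg, Nr3c2, the mineralocorticoid receptor (21.3, with a border of signal 9.58), and Nr1h3, the oxysterol receptor LXRα (19.2). Unbordered fat sites lay within 10 kb of 5 of the 16 insulin signalling genes, 4 of the 16 glucose genes and 4 of the 27 nuclear receptor genes. Any eWAT peak did so for 10, 9 and 10 genes in the same order.

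The hepatocyte, neuron, muscle, housekeeping and stromal, vascular and immune lists had at most 1 gene each with a site within 10 kb. The hepatocyte list had 1 of 20 (95% Wilson interval 0.888 to 23.6%, which overlaps those of the clock list, 9.66 to 41.9%, and the adipocyte list, 10.6 to 40.8%), Apoa2, and there the site lay in an intron of Fcer1g, whose start was nearer. The stromal, vascular and immune list had 1 of 16, Lyz2, with the site in its neighbour Lyz1. In that list 5 of 16 genes had an unbordered fat site within 10 kb and 6 any eWAT peak. The neuron list had 1 of 24, Syp, with an E-box and a score of 17.2. The muscle list had 0 of 13 and a housekeeping list 0 of 12. Within 50 kb the counts were 15 of 27 adipocyte genes and 8 of 23 clock genes, against 5 of 20 hepatocyte genes (25%) and 2 of 24 neuron genes, where the background was 12.3%.

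**Figure D5:**
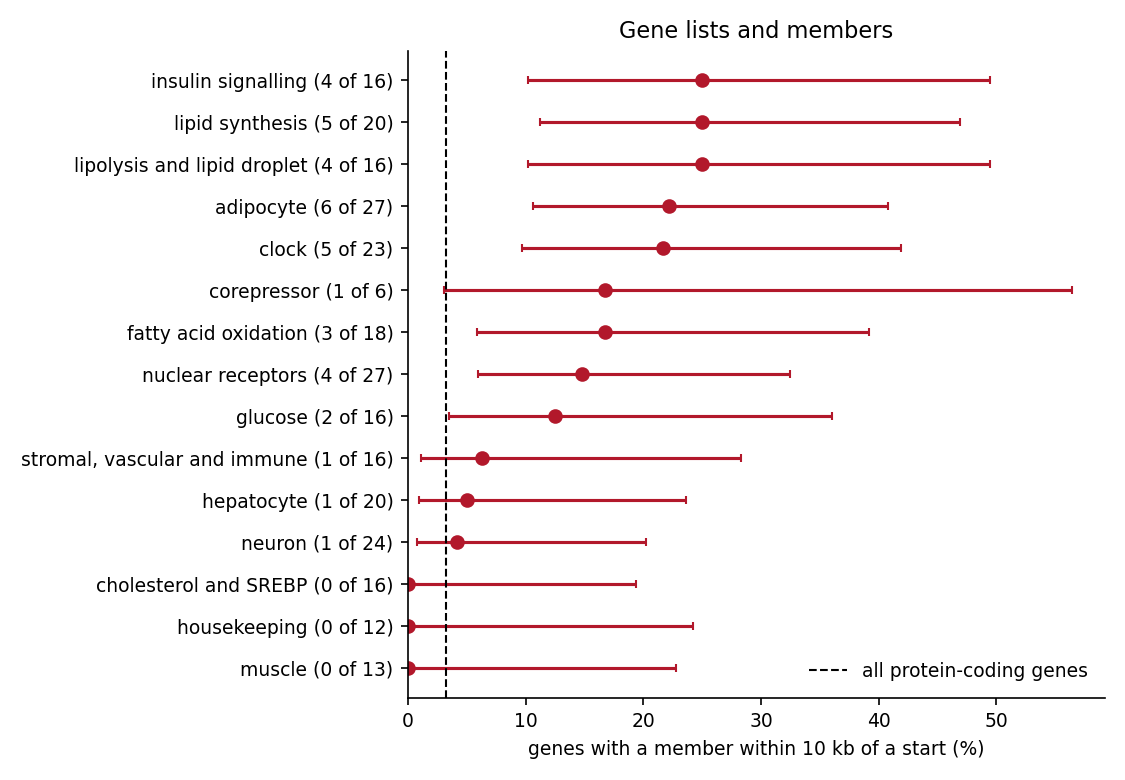
Percentage of the genes of each list with one of the 1998 sites within 10 kb of a start (points), with 95% Wilson intervals and the counts beside the names; the dashed line marks the 3.18% of all protein-coding genes. Lists of insulin signalling, lipid synthesis, lipolysis, adipocyte and clock genes stand between 21.7% and 25%. The cholesterol and SREBP list and the hepatocyte, neuron, muscle and housekeeping lists stand at 5.00% or below.

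The thresholds of the rule had sites and peaks close to them on both sides. The border distance gave 39 sites with their nearest border in the last 10 bp inside the limit, among them those near Blvrb, Egln3 and Ccdc153 at 100 bp with scores of 13.2, 13.2 and 12.2, and 46 peaks in the first 10 bp outside it, among them those near Rab31, Kcnrg and Poc1b at 101 bp with scores of 19.2, 13.2 and 12.2. At the start distance, sites near the limit were at 1009 bp from a start of Erap1 and at 1011 bp from Marveld1, and peaks just outside it were at 1000 bp from Clock, 998 bp from Dnajc9 and 996 bp from 3230401D17Rik. The closest brain peaks that did not overlap were centred 150, 151 and 153 bp away from the sites near Pigk, Enpep and Zbtb34. Outside the rule, the smallest overlaps had the brain centre 149, 148 and 145 bp away, near Ddx3x, Cdkn1a and Irf2bp2. Of the 1998 sites, 58 (2.90%) had a brain peak centre within 1 kb.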

How the data were processed

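The authors deposited 1 peak list each for eWAT and brain, with a score per peak whose unit is not defined, and 1 list of liver ChIP-exo borders with, per the file headers, a signal and a p-value for each border. The submitters' processing notes name mm9, Bowtie 0.12.8 (ChIP-seq), Bowtie 1.1.1 (ChIP-exo) and HOMER; how peaks and borders were called, and with which thresholds and inputs, is not given in the sources used here. Another threshold would change how many sites have a border or a brain peak. The other 13 groups were not analysed here.

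Centres, overlaps (at least 1 bp), borders and gene distances used the mm9 sequence (NCBIM37) and GENCODE vM1. Motifs were exact consensus matches on both strands. Shares have 95% Wilson intervals and differences Newcombe intervals. Functions were tested on simulated data (Python 3.11.15, numpy 2.4.6, pandas 2.3.3, scipy 1.17.1).

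The members, motifs and gene lists were chosen with earlier results of these data known. Named were the 12 sites with the highest eWAT score, the 6 with the strongest border and up to 4 genes per list by score; further list genes (Rora, Thrsp, Adrb3, Gpam), the clusters and the sequences with E-box, C/EBP or D-box were added after their values were seen. Sequences on chromosome 18 or in untranslated exons were not printed. A few of the genes picked this way are not reported here.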

Additional observations from a re-analysis of the deposited data

How the results depend on the processing

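No paired analysis was possible because the files hold 1 pooled list per group, so no replicate could be left out or used as a block. The number of sites was 1225 with eWAT scores above the list median, 753 with borders of p at most 0.01 and 718 with an opposite-strand border pair. Motifs called against unbordered fat sites numbered 4 to 6 under the 7 other settings chosen at the outset, of which the E-box and C/EBP were called in all. With borders within 50 bp or of p at most 0.01, sites whose borders failed the setting were counted in the comparison class. AGGTCA was lost with borders of p at most 0.01 (0.59 points), the D-box with motifs within 25 bp (0.69) and above the median score (1.30), and the forkhead element with motifs within 25 bp (0.54) and over 10 kb from a start (0.96), while the DR1 was called in 3 settings. Motifs called within the score quartiles, from highest to lowest (chosen after seeing the data), numbered 2 (C/EBP and E-box), 1 (E-box), 1 (D-box) and 1 (E-box). In the lowest quartile the C/EBP difference was -0.51 points. Against brain-shared sites the motifs called numbered 6 with motifs within 100 bp, 6 with borders within 50 bp and 5 over 10 kb from a start. They numbered 3 with motifs within 25 bp, 3 above the median score and 1 with borders of p at most 0.01. With a border pair they numbered 2, and the ETS difference there was 0.14 points. The E-box was among those called with borders within 50 bp. Smaller classes widen the intervals by construction. The share with a border pair was 42.1% above the median score, 23.0% at a spacing of 5 to 30 bp, 28% with borders within 50 bp and 4.91% with borders of p at most 0.01. Genes near a site numbered 426 above the median score, 220 with borders of p at most 0.01, 2750 within 50 kb and 1647 as nearest gene identifiers. The intron share stayed between 47.8% and 50.4%. Unknown depth and list thresholds limit every count, and the cause of these shifts was not tested further.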
